A study of Homo sapiens with 12 samples.

Results

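The genes described here are 10 surface and granule genes that mark monocytes and granulocytes: CD14, ITGAM, ITGAX, C5AR1, CD33, CD86, CSF1R, LYZ, MPO and FCGR1A. They were taken by symbol from tables of 14866 genes. All 10 were found, and all 10 passed the filter on low values that 13502 genes passed. SHI-1 is an acute myeloid leukemia (AML) cell line that carries the MLL-AF6 fusion. Its cells were treated for 16 h with DMSO, with 0.3 µM disulfiram and 1 µM copper (DSF), with 5 µM niclosamide (NSM), or with both drugs (DSF+NSM), in 3 independent experiments each. The study asked whether both drugs together suppress MLL-fusion driven transcription more than either drug alone. The sources used here do not state whether the DMSO and NSM cultures also received copper. A single cell line was used, so the 3 libraries of a group are repeat cultures of SHI-1.

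AML blasts are stalled at an immature stage of the myeloid lineage. As granulocyte and monocyte precursors mature, they stop making the enzymes of the primary granules, such as myeloperoxidase, and place receptors for bacterial products, complement, antibody and adhesion ligands on their surface. CD14, CD11b (the product of ITGAM) and CD11c (the product of ITGAX) are among the surface proteins most often stained to follow this maturation. RNA was measured here, not surface protein.

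Promoter windows are shown beside the RNA levels, whose changes differed among the members. Myeloid promoters often lack a TATA box and hold purine-rich sites for the transcription factor PU.1. The windows are the 250 bases upstream of the RefSeq start (GRCh38.p14), and RefSeq gave 9 such windows for 7 members: CD14, ITGAM, C5AR1, CD33, CD86, CSF1R and FCGR1A. Below are 4 windows, 5′ to 3′ on the strand of the gene: CD14 and C5AR1, the members that rose most with DSF, ITGAM, and the downstream of the 2 starts of CSF1R, which fell under NSM. Capitals mark matches on either strand to GAGGAA (the purine core that PU.1 recognises, which reads TTCCTC on the other strand), TTGCNNAA (a form of the palindromic C/EBP site), TGANTCA (the AP-1 site) and CCGCCC (a GC box of the SP1 kind, GGGCGG on the other strand).
CD14, chr5:140633176-140633425, minus strand: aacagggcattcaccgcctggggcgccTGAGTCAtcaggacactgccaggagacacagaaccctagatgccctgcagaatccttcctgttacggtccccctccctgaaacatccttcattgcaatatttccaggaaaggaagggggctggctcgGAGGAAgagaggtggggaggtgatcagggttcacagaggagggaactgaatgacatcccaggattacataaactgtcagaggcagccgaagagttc
C5AR1, chr19:47309611-47309860, plus strand: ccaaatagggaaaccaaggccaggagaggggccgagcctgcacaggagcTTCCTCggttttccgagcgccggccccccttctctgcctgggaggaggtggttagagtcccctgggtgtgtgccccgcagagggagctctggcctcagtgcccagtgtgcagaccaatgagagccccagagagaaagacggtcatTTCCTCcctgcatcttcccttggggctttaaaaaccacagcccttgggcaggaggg
ITGAM, chr16:31259725-31259974, plus strand: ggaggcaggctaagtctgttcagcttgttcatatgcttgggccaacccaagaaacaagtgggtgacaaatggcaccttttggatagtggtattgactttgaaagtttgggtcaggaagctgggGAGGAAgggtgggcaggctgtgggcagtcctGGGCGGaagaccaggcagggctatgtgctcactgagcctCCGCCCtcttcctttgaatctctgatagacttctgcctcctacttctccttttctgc
CSF1R, chr5:150086555-150086804, minus strand: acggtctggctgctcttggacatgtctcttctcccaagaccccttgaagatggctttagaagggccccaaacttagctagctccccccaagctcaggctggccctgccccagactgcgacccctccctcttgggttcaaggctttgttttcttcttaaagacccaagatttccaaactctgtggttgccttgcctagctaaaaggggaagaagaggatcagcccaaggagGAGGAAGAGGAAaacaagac
GAGGAA stood in 7 of the 9 windows and in at least 1 window of all 7 members, and in 23.6% of the 35116 RefSeq promoter windows of the same length. TGANTCA stood in 2 of the 9 windows (6.57% of all windows), among them that of CD14. CCGCCC stood in 3 (42.6% of all windows) and TTGCNNAA in 0 (9.05% of all windows). In the sequences shown, C5AR1 holds its 2 matches as TTCCTC, and CSF1R holds 2 copies of GAGGAA next to each other, from 20 to 9 bases before the start. No match overlapped another. ITGAX, LYZ and MPO had no entry. These are matches of letters, and binding was not measured.

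The deposited values are normalized counts per gene. In each library only 29.0 to 32.3% of the values above 0 were whole multiples of a common small value, the step. Most values are thus not whole read counts divided by 1 factor for the library. The sum over genes ranged from 14.0 to 14.4 M across DMSO libraries and from 14.9 to 15.3 M with DSF, and reached 16.5 to 17.5 M with NSM and 22.7 to 25.6 M with both drugs, so the scaling of the DSF+NSM libraries bears on every value below. When libraries were instead scaled to equal sums, the median log2 change of all genes was -0.75 for DSF+NSM, -0.25 for NSM and -0.05 for DSF against DMSO, and the members' DSF+NSM changes against DMSO were lower by a median of 0.78 than those given below. Depth, estimated roughly from that step, was 10.2 to 19.0 M reads per library. Replicate 3 of NSM stood apart from its group (Spearman correlation 0.939 and 0.950 with the other NSM libraries, and 0.980 to 0.996 in all other pairs within a group), and member calls that changed without it are given both ways. Nuclear rRNA held 1.11 to 2.84% of the normalized counts in DMSO, 3.71 to 4.98% with DSF, 0.643 to 3.69% with NSM and 6.35 to 7.96% with DSF+NSM. Mitochondrial rRNA held 0.666 to 0.776%, 0.866 to 1.01%, 1.48 to 4.88% and 3.28 to 4.14% in the same order. NSM replicate 3 had the lowest share of the first and the highest of the second, and the part of these shares in the results was not tested. The 11 myeloid markers were at 10 or more in all 12 libraries. Of the 9 lymphoid markers, MS4A1 was at 0 in all libraries, and the summed level, most of it NKG7, ranged from 1123 to 1196 in DMSO libraries, and with DSF, NSM and both drugs from 1831 to 2023, 1181 to 2270 and 1669 to 2155. The erythroid and megakaryocyte markers summed to at most 115 in any library and the stromal and epithelial markers to at most 242, and the part of these genes in the results was not tested. In RNA from whole cultures, fewer cells of a type and less RNA per cell cannot be told apart.

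In DMSO-treated SHI-1 cells MPO was by far the most abundant member. Per kilobase of the canonical transcript, its level was 18053 ± 1331 (SD, n = 3). CD33 (570 ± 40.3 per kilobase), FCGR1A (522 ± 23.7) and LYZ (513 ± 25.8) followed. The ranges of FCGR1A and LYZ overlapped, and no other neighbours in the order did. ITGAX (164 ± 21.7 per kilobase), ITGAM (116 ± 7.16), CD14 (44.0 ± 4.03), CSF1R (20.6 ± 2.29), CD86 (15.1 ± 3.02) and C5AR1 (8.70 ± 1.02) completed it. Untreated cells thus carried much message for the granule enzyme and little for the complement receptor C5AR1 and the endotoxin receptor CD14. In DSF+NSM cells the per-kilobase level of MPO was 6607 ± 425, still the highest, while that of C5AR1 was 283 ± 66.6 and that of CD14 was 248 ± 41.7. The ranges of C5AR1 and CD14 overlapped each other there, as did those of C5AR1 and LYZ (310 ± 22.5 per kilobase). CSF1R had the lowest per-kilobase level in each of the 3 treated groups (DSF 35.6 ± 1.53, NSM 6.32 ± 2.87, DSF+NSM 12.4 ± 1.59). In DSF its range lay within that of CD86.

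**Figure D1:**
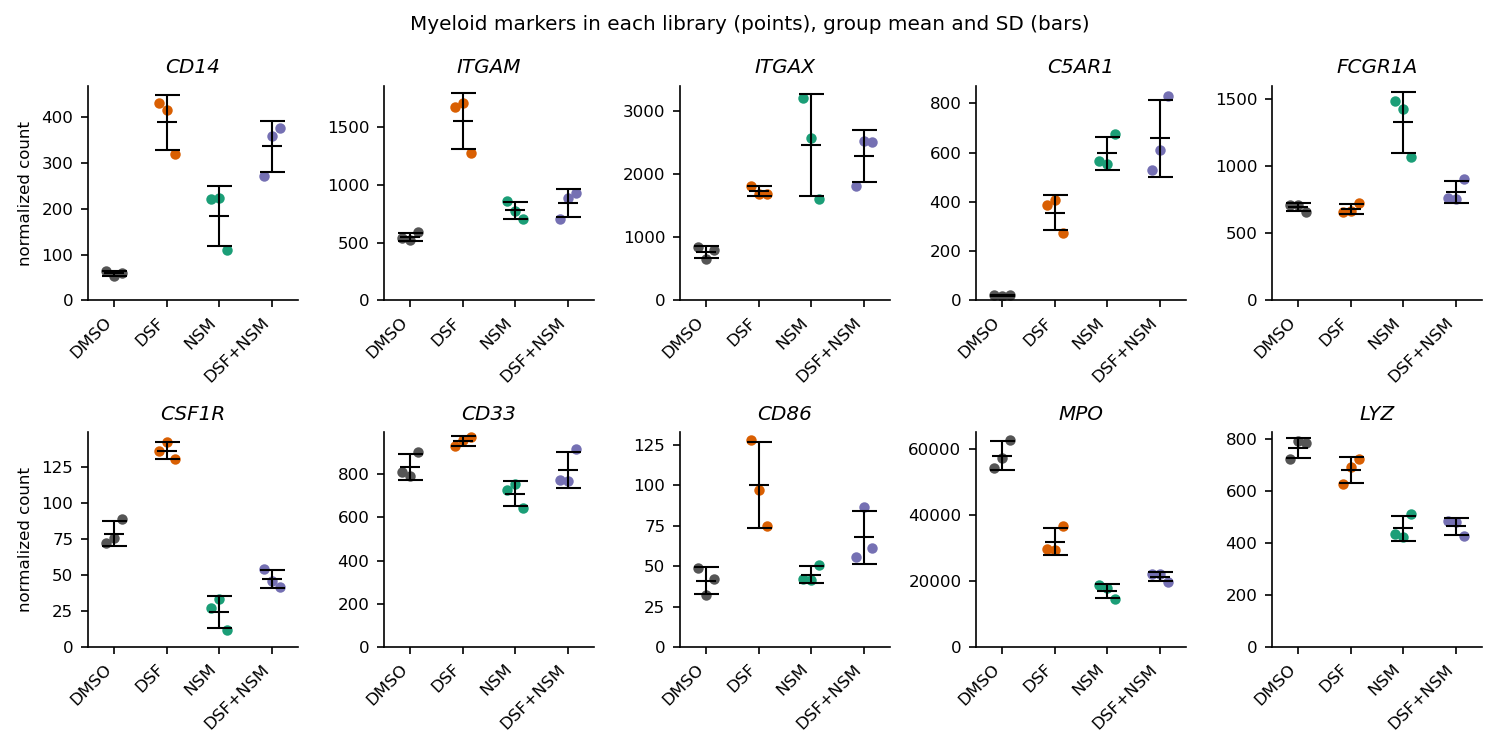
Normalized counts (vertical axes, each starting at 0) of the 10 members in the 12 libraries. Points are libraries, and bars are the group mean and SD of 3 libraries. C5AR1 was at 17.8 to 22.6 in DMSO and at 275 to 830 in the treated libraries, and MPO was at 54162 or more in DMSO and at 36629 or less in every treated library.

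DSF changed 6 of the 10 members against DMSO, 5 upward and 1 downward, where 17.8% of all genes tested were called (limma, adjusted p under 0.05). NSM changed 8, with 5 up and 3 down (49.1% of all genes called), and DSF+NSM changed 7, with 5 up and 2 down (52.8% of all genes). The share for DSF was not stable, at 41.2% of all genes without NSM replicate 3 (7 members called) and 6.77% without DSF replicate 2 (6 members). It was 60.5% with library weights (9 members) and 54% with only the groups compared (8 members). With equal sums the DSF+NSM calls were 3 up (C5AR1, CD14 and ITGAX) and 5 down (MPO, LYZ, CD33, CSF1R and FCGR1A), and all genes split into 11.3% up and 56.3% down, instead of 28.3% and 24.5%. C5AR1, CD14, ITGAX and ITGAM rose and MPO fell in all 3 comparisons, which share the DMSO libraries. For ITGAM, equal sums ended the NSM call and reversed the DSF+NSM value. The median log2 change of the members was 0.99 under DSF, with NSM 0.32 and with the combination 0.41, beside 0.05, 0.01 and 0.03 for all genes. FCGR1A rose with NSM, CD86 rose with DSF and with DSF+NSM, LYZ fell with NSM and with DSF+NSM, and CSF1R fell with NSM. CD33 was not called in any of the 3 in this fit, but was in some alternatives given below. Of all genes tested, 11.9% rose and 5.95% fell with DSF, 25.4% and 23.7% with NSM, and 28.3% and 24.5% with DSF+NSM. The counts of gene lists given below stand beside these shares and were not tested against them. A listed gene named for 1 comparison may also have been called in others. Values with equal sums are not given for every listed gene.

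**Figure D2:**
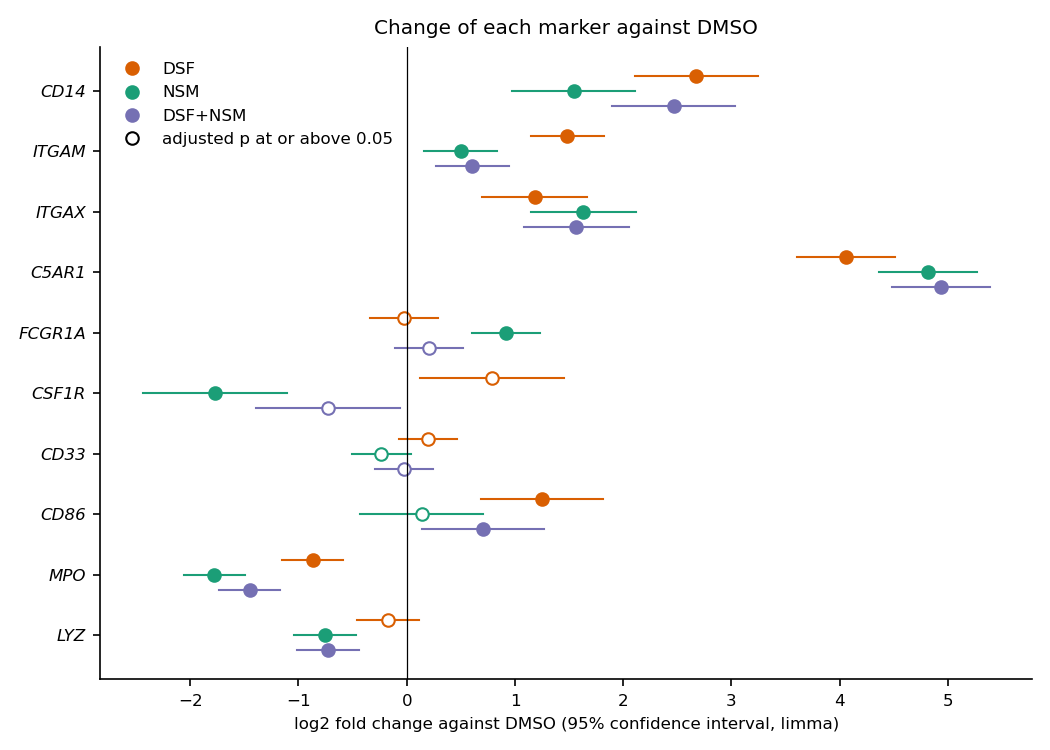
Log2 fold change of each member against DMSO (horizontal axis) for DSF, NSM and DSF+NSM, with the 95% confidence interval from limma over 12 libraries. Filled circles have an adjusted p under 0.05. C5AR1 lies farthest to the right in all 3 comparisons, at 4.06 to 4.94, and the MPO circles lie between -1.78 and -0.87.

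C5AR1 (chromosome 19, 47290023 to 47322066, plus strand, GRCh38) encodes the receptor through which the complement fragment C5a attracts and activates phagocytes. Its normalized counts were 22.6, 17.8 and 20.2 in DMSO replicates 1 to 3, 387, 406 and 275 in DSF, 565, 554 and 674 in NSM, and 530, 612 and 830 in DSF+NSM. Every treated library lay above every DMSO library, and the DSF libraries lay below those of NSM and DSF+NSM. The log2 fold change against DMSO was 4.06 ± 0.21 (SE; adjusted p = 1.9e-07) with DSF, 4.82 ± 0.21 (adjusted p = 3.18e-08) with NSM and 4.94 ± 0.21 (adjusted p = 4.06e-09) with DSF+NSM. On the scale of group means these are ratios of 17.6, 29.5 and 32.5. The level with both drugs exceeded that with DSF by 0.88 ± 0.21 (adjusted p = 0.00462), but by 0.19 (adjusted p = 0.479) with equal sums, and differed from that with NSM by 0.12 (95% interval -0.33 to 0.57, adjusted p = 0.678). C5AR2, the second C5a receptor, was at 11.7 ± 3.53 in DMSO. Its log2 change was 1.17 with DSF (adjusted p = 0.0495), a call lost when any 1 DMSO or DSF library, NSM replicate 2, or DSF+NSM replicate 1 or 2 was left out (adjusted p up to 0.188), and 0.88 and 0.92 with NSM and DSF+NSM (adjusted p = 0.069 and 0.0574, and 0.0146 and 0.0274 without NSM replicate 3).

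CD14 (chromosome 5, 140631728 to 140633700, minus strand) encodes the coreceptor that hands lipopolysaccharide to the TLR4 complex. Normalized counts were 64.8, 54.0 and 60.1 in DMSO, 431, 415 and 321 in DSF, 221, 223 and 109 in NSM, and 272, 360 and 377 in DSF+NSM. All treated libraries exceeded all DMSO libraries, NSM replicate 3 was the lowest treated library, and the DSF and DSF+NSM groups overlapped. CD14 rose by 2.68 ± 0.26 with DSF (adjusted p = 3.26e-05), by 1.54 ± 0.26 with NSM (adjusted p = 0.00042) and by 2.46 ± 0.26 with DSF+NSM (adjusted p = 8.37e-06) on the log2 scale. Without NSM replicate 3 the NSM change was 1.88 ± 0.18 (adjusted p = 3.88e-07). The level with both drugs exceeded that with NSM by 0.92 ± 0.26 (adjusted p = 0.0148). That difference was 0.59 (adjusted p = 0.0126) without NSM replicate 3, was lost without DSF+NSM replicate 2 (adjusted p = 0.0548) and with equal sums (0.41, adjusted p = 0.232). Against DSF it was -0.21 (95% interval -0.78 to 0.36, adjusted p = 0.543), and -0.90 (adjusted p = 0.0139), a fall, with equal sums.

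TLR4, the signalling receptor that CD14 serves, moved otherwise. Its normalized counts were 105, 120 and 135 in DMSO, 231, 194 and 180 in DSF, 43.3, 57.0 and 77.4 in NSM, and 66.4, 68.1 and 77.4 in DSF+NSM. The DSF libraries lay above and the NSM and DSF+NSM libraries below all DMSO libraries. TLR4 fell by 1.04 on the log2 scale with NSM (adjusted p = 0.00196) and by 0.75 with DSF+NSM (adjusted p = 0.0121, and 0.0527 without DMSO replicate 3). Its rise of 0.74 with DSF (adjusted p = 0.0365) was lost without any 1 DMSO or DSF library or without DSF+NSM replicate 2 (adjusted p 0.0501 to 0.141), with equal sums (adjusted p = 0.0704) and with the median of ratios (adjusted p = 0.0513). LY96, which encodes the MD-2 subunit of the TLR4 complex, was at most 12.4 in any library and was not tested. Of 7 tested receptors and adaptors of lipopolysaccharide and Toll-like recognition, TLR4 included, 1 was called up (TLR4) and 1 down (CD36) with DSF, 2 up and 3 down with NSM, and 1 up and 4 down with DSF+NSM. CD36, a scavenger receptor, fell by 1.32 with NSM (adjusted p = 0.000569) and by 1.46 with DSF+NSM (adjusted p = 0.000213). TICAM2, a TLR4 adaptor, had normalized counts of 0, 3.02 and 14.7 in DMSO and 33.4, 44.6 and 390 in NSM, the last in replicate 3. Its log2 rise of 4.41 with NSM (adjusted p = 0.0295) was 3.31 (adjusted p = 0.13) without that library, and was also lost without DMSO replicate 1 (3.42, adjusted p = 0.121) or 2 (adjusted p = 0.0661). TLR2, which recognises bacterial lipoproteins, rose by 1.45 with NSM (adjusted p = 0.000454). Its change with DSF+NSM was 0.75 (adjusted p = 0.0223, with overlapping groups) and -0.021 with equal sums, and the call was lost without DMSO replicate 1 or 3 or DSF+NSM replicate 2 or 3 (adjusted p 0.0581 to 0.0885).

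ITGAM and ITGAX lie near each other on chromosome 16 (31259967 to 31332892 and 31355134 to 31382999, both on the plus strand). Each encodes an alpha chain that pairs with the beta2 chain, the product of ITGB2, to form complement receptor 3 (CD11b/CD18) or complement receptor 4 (CD11c/CD18). ITGAM had normalized counts of 536, 525 and 588 in DMSO, 1673, 1702 and 1272 in DSF, 855, 775 and 702 in NSM, and 707, 889 and 932 in DSF+NSM. All DSF libraries lay above all others, and NSM and DSF+NSM overlapped each other but not DMSO. The rise of ITGAM with DSF was 1.48 ± 0.16 (adjusted p = 5.78e-05). With NSM it was 0.50 ± 0.16 (adjusted p = 0.0186), and this call was lost without DMSO replicate 1, DMSO replicate 2 or NSM replicate 1 (adjusted p = 0.0568, 0.0647 and 0.0569) and with equal sums (0.23, adjusted p = 0.287). With DSF+NSM it was 0.61 ± 0.16 (adjusted p = 0.0056), and -0.18 (adjusted p = 0.375) with equal sums. ITGAM was 0.88 ± 0.16 lower with both drugs than with DSF (adjusted p = 0.000745).

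ITGAX had normalized counts of 849, 653 and 794 in DMSO, 1815, 1688 and 1686 in DSF, 3199, 2570 and 1601 in NSM, and 1811, 2529 and 2508 in DSF+NSM. The treated groups overlapped one another and lay above DMSO, and NSM replicate 3 was the lowest treated library. The log2 rise was 1.18 ± 0.22 with DSF (adjusted p = 0.00383), 1.63 ± 0.22 with NSM (adjusted p = 8.58e-05) and 1.57 ± 0.22 with DSF+NSM (adjusted p = 8.87e-05). Without NSM replicate 3 the NSM value was 1.91 ± 0.15 (adjusted p = 7.7e-08). The level with both drugs differed from that with DSF by 0.38 without a call, and this was called without NSM replicate 3 (adjusted p = 0.0223) and with only the groups compared (adjusted p = 0.031). By group means ITGAM was higher with DSF and ITGAX with NSM, but the DSF and NSM libraries of ITGAX overlapped. In a comparison of NSM with DSF, added after the values were seen and in which 44.4% of all genes were called, ITGAM was 0.99 ± 0.16 lower with NSM (adjusted p = 0.000401), while ITGAX was 0.45 ± 0.22 higher without a call (adjusted p = 0.118) and 0.73 ± 0.15 higher without NSM replicate 3 (adjusted p = 0.000964).

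ITGB2, the shared beta chain, was at 4988 ± 188 in DMSO, and the DSF, NSM and DSF+NSM means were 7202 ± 360, 5488 ± 1757 and 4846 ± 335 (SD, n = 3). Its log2 change was 0.53 (adjusted p = 0.0821), 0.08 (adjusted p = 0.758) and -0.04 (adjusted p = 0.867). NSM replicate 3 was the lowest library at 3479, and without it the NSM change was 0.38 (adjusted p = 0.0019) and the DSF rise of 0.53 was called (adjusted p = 0.000122), as it was without NSM replicate 1 (adjusted p = 0.0488). With equal sums the DSF+NSM value was -0.83 (adjusted p = 0.00334). Among 13 tested integrins and adhesion partners, 7 rose and 1 fell with DSF, 4 rose and 3 fell with NSM, and 3 rose and 3 fell with DSF+NSM. ICAM1, a ligand of the beta2 integrins, rose in each, by 3.29, 3.11 and 3.77 on the log2 scale (adjusted p = 2.69e-06, 9.9e-07 and 1.01e-07). ITGA4, the alpha4 chain that binds VCAM1, fell by 1.24 with NSM (adjusted p = 0.00266) and by 2.30 with DSF+NSM (adjusted p = 2.29e-05). Its fall of 0.95 with DSF (adjusted p = 0.0331) was lost without any 1 DMSO or DSF library (adjusted p 0.0546 to 0.137).

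FCGR1A (chromosome 1, 149782671 to 149791675, plus strand) encodes CD64, the high-affinity receptor for IgG. Normalized counts were 714, 714 and 659 in DMSO, 657, 665 and 725 in DSF, 1487, 1427 and 1070 in NSM, and 761, 757 and 903 in DSF+NSM. NSM libraries lay above all others, and DSF overlapped DMSO. FCGR1A rose by 0.92 ± 0.14 with NSM (adjusted p = 0.000248) and by 1.07 ± 0.11 (adjusted p = 6.84e-07) without NSM replicate 3. Its change was -0.03 (95% interval -0.34 to 0.29, adjusted p = 0.916) with DSF and 0.21 (-0.10 to 0.52, adjusted p = 0.242) with DSF+NSM, and the latter was -0.57 (adjusted p = 0.00728) with equal sums. With both drugs it was 0.71 ± 0.14 lower than with NSM (adjusted p = 0.00231). Against DSF its value was 0.24 and was not called, but was called without NSM replicate 3 (adjusted p = 0.041), and was -0.45 (adjusted p = 0.0297) with equal sums. FCGR1A has near-identical copies, FCGR1B and FCGR1C, so its values are uncertain to the extent that reads were split among them, and 177 bases of its exons overlap a gene on the opposite strand. FCGR1C was called with NSM as well, with a rise of 0.86 (adjusted p = 0.0097, and 0.0687 with equal sums), while FCGR1B changed by 0.29 (adjusted p = 0.292).

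FCER1G encodes the common gamma chain through which CD64 signals. It rose with DSF (log2 change 1.03, adjusted p = 0.0107, and 0.0528 without DSF replicate 2), with NSM (1.85, adjusted p = 4.47e-05) and with DSF+NSM (1.21, adjusted p = 0.000829, and 0.134 with equal sums). Of 10 tested Fc receptor and ITAM signalling genes, 5 rose and 0 fell with DSF, 7 rose and 2 fell with NSM, and 6 rose and 2 fell with DSF+NSM. FCAR, the IgA receptor, rose by 1.44 with DSF (adjusted p = 0.00029), by 0.65 with NSM (adjusted p = 0.0117) and by 1.15 with DSF+NSM (adjusted p = 0.000233). FGR, a SRC family kinase of myeloid cells, rose by 1.185 with DSF (adjusted p = 0.000218), by 1.01 with NSM (adjusted p = 0.000128) and by 1.34 with DSF+NSM (adjusted p = 1.08e-05). SYK, the kinase that docks on phosphorylated ITAMs, fell by 0.76 with NSM (adjusted p = 0.000445) and by 1.42 with DSF+NSM (adjusted p = 2.47e-06).

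CSF1R (chromosome 5, 150053291 to 150113372, minus strand) encodes the receptor for CSF1 and interleukin 34, which macrophages need to survive and mature. Normalized counts were 71.9, 75.4 and 88.5 in DMSO, 136, 142 and 130 in DSF, 27.3, 33.2 and 11.9 in NSM, and 53.8, 45.9 and 41.8 in DSF+NSM. The 4 groups did not overlap, with DSF highest and NSM lowest. CSF1R fell by 1.77 ± 0.31 with NSM (adjusted p = 0.000497), and by 1.35 ± 0.21 (adjusted p = 4.86e-05) without NSM replicate 3. Its change with DSF was 0.79 ± 0.31 (adjusted p = 0.0949) and with DSF+NSM -0.73 ± 0.31 (adjusted p = 0.0639), neither a call. Both turned on NSM replicate 3, through the estimate of the spread, as the adjusted p without it was 0.00339 and 0.00286. The second was also called without NSM replicate 2 (adjusted p = 0.0423), and was -1.49 (adjusted p = 0.000995) with equal sums. Both were called with library weights (adjusted p = 5.65e-05 and 0.00219) and with only the groups compared (adjusted p = 0.000245 and 0.0116). CSF1R was 1.52 ± 0.31 lower with both drugs than with DSF (adjusted p = 0.0018). It was 1.05 ± 0.31 higher with both drugs than with NSM (adjusted p = 0.0176), but 0.63 (adjusted p = 0.0213) without NSM replicate 3, and the call was lost without DSF+NSM replicate 1 (adjusted p = 0.0662) and with equal sums (0.54, adjusted p = 0.156).

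The ligand CSF1 rose in every comparison while its receptor did not. CSF1 had normalized counts of 9.52, 8.45 and 9.43 in DMSO, 65.5, 77.8 and 46.7 in DSF, 132, 108 and 103 in NSM, and 440, 407 and 531 in DSF+NSM. The 4 groups did not overlap and the DSF+NSM libraries were highest. Its log2 rise was 2.64 with DSF, 3.50 with NSM and 5.50 with DSF+NSM (adjusted p = 9.45e-06, 3.03e-07 and 2.78e-09). IL34 was not analysed here. The list of colony-stimulating factor receptors and ligands also held IL6R. Of its 6 tested genes, 3 rose and 0 fell with DSF, 2 rose and 2 fell with NSM, and 3 rose and 1 fell with DSF+NSM. CSF2RB, the shared chain of the GM-CSF and interleukin 3 receptors, fell by 1.18 with NSM (adjusted p = 0.000199). IL6R, the interleukin 6 receptor, fell by 0.54 with DSF+NSM (adjusted p = 0.00314).

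**Figure D3:**
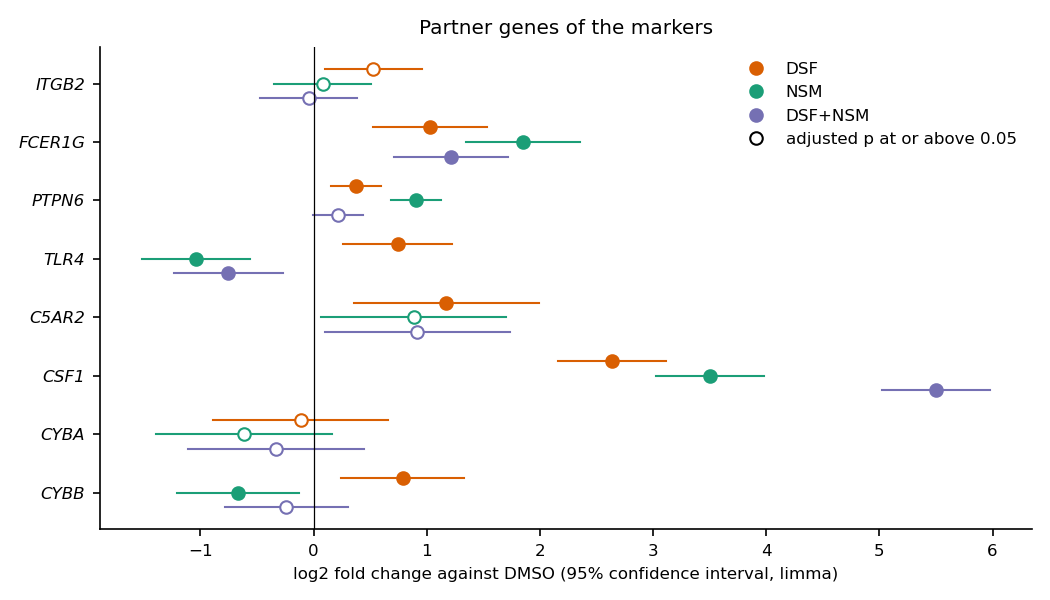
Log2 fold change against DMSO (horizontal axis) of 8 partner genes of the members for DSF, NSM and DSF+NSM, with 95% confidence intervals from limma. Filled circles have an adjusted p under 0.05. CSF1 lies at 2.64, 3.50 and 5.50, whereas none of the 3 ITGB2 circles is filled, though its DSF and NSM changes were called without NSM replicate 3.

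CD33 (chromosome 19, 51225064 to 51243860, plus strand) encodes an inhibitory receptor that binds sialic acid and is carried by most AML blasts. Its normalized counts were 811, 790 and 901 in DMSO, 930, 959 and 974 in DSF, 727, 755 and 645 in NSM, and 774, 768 and 918 in DSF+NSM. The DSF libraries lay above and the NSM libraries below all DMSO libraries, and DSF+NSM overlapped DMSO. The log2 change was 0.20 (95% interval -0.07 to 0.47, adjusted p = 0.297) with DSF, -0.23 (-0.50 to 0.04, adjusted p = 0.136) with NSM and -0.03 (-0.30 to 0.24, adjusted p = 0.873) with DSF+NSM. With equal sums the NSM and DSF+NSM values were -0.50 (adjusted p = 0.0116) and -0.81 (adjusted p = 0.000315). With library weights the DSF value was 0.22 (adjusted p = 0.00708) and the NSM value -0.11 (adjusted p = 0.031), where 60.5% and 82.3% of all genes were called. The DSF value was also called with only the groups compared (adjusted p = 0.0354, 54% of all genes called). In the added comparison CD33 was 0.43 ± 0.12 lower with NSM than with DSF (adjusted p = 0.0142, and 0.0628 with only the groups compared).

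PTPN6 encodes SHP-1, a phosphatase that inhibitory receptors such as CD33 recruit. It rose by 0.91 with NSM (adjusted p = 1.97e-05). Its change with DSF was 0.38 (adjusted p = 0.0247), lost without any 1 DMSO or DSF library (adjusted p 0.0567 to 0.104), and with DSF+NSM 0.22 (adjusted p = 0.0872, and 0.0226 without NSM replicate 3), or -0.56 (adjusted p = 0.000438) with equal sums. Of 13 tested inhibitory receptors and phosphatases, 6 rose and 0 fell with DSF, and 3 rose and 2 fell with each of NSM and DSF+NSM. PILRA, another inhibitory receptor, rose by 1.69, 2.30 and 2.07 (adjusted p = 8e-06, 2.09e-07 and 1.71e-07). SIGLEC10, a relative of CD33, fell by 1.27 with NSM (adjusted p = 2.03e-05) and by 0.98 with DSF+NSM (adjusted p = 0.000108).

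CD86 (chromosome 3, 122055362 to 122121139, plus strand) encodes a ligand of CD28 that antigen-presenting cells use to costimulate T cells. Its normalized counts were 48.8, 32.4 and 42.0 in DMSO, 128, 96.9 and 75.0 in DSF, 42.1, 41.4 and 51.0 in NSM, and 55.8, 86.4 and 61.0 in DSF+NSM. DSF and DSF+NSM lay above DMSO and overlapped each other, and NSM overlapped DMSO. CD86 rose by 1.25 ± 0.26 with DSF (adjusted p = 0.00681). With NSM the change was 0.14 (95% interval -0.43 to 0.70, adjusted p = 0.688). The rise with DSF+NSM was 0.70 ± 0.26 (adjusted p = 0.0375), and it was lost without DMSO replicate 2, DMSO replicate 3, DSF replicate 2 or DSF+NSM replicate 2 (adjusted p = 0.148, 0.0726, 0.0527 and 0.151) and turned to -0.067 (adjusted p = 0.832) with equal sums. Of 6 tested genes of costimulation and antigen presentation, 1 rose and 0 fell with DSF, 0 rose and 2 fell with NSM, and 2 rose and 1 fell with DSF+NSM. CD83, a marker of mature dendritic cells, rose by 1.73 with DSF+NSM (adjusted p = 5.76e-07) and fell by 0.64 with NSM (adjusted p = 0.00164). ICOSLG, the ligand of ICOS, fell by 1.37 with NSM (adjusted p = 0.00284) and by 2.02 with DSF+NSM (adjusted p = 0.000157).

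MPO (chromosome 17, 58269855 to 58280935, minus strand) encodes myeloperoxidase, the enzyme of primary granules that makes hypochlorous acid. Its normalized counts were 54162, 57371 and 62640 in DMSO, 29730, 29316 and 36629 in DSF, 18630, 17860 and 14453 in NSM, and 22034, 22043 and 19671 in DSF+NSM. The 4 groups did not overlap. The log2 change of MPO was -0.87 ± 0.13 with DSF (adjusted p = 0.000881), -1.78 ± 0.13 with NSM (adjusted p = 8.28e-07) and -1.45 ± 0.13 with DSF+NSM (adjusted p = 2.19e-06), a fall in each. It was lower with both drugs than with DSF, by 0.58 ± 0.13 (adjusted p = 0.00334), whereas its value above that with NSM was 0.33 ± 0.13 and was not called (adjusted p = 0.0612). That call was gained without NSM replicate 1 or DSF+NSM replicate 3 (adjusted p = 0.0389 and 0.0483). As a share of all normalized counts MPO held 0.409% ± 0.0276 in DMSO, and 0.210% ± 0.0257, 0.0994% ± 0.0139 and 0.0868% ± 0.00074 with DSF, NSM and DSF+NSM (SD, n = 3), so that on this scale the DSF+NSM mean was the lower of the last pair.

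LYZ (chromosome 12, 69348381 to 69354234, plus strand) encodes lysozyme, which cuts bacterial cell walls and is made by monocytes in large amounts. Its normalized counts were 721, 792 and 782 in DMSO, 625, 692 and 720 in DSF, 434, 420 and 510 in NSM, and 485, 479 and 424 in DSF+NSM. NSM and DSF+NSM overlapped each other and lay below the remaining libraries. LYZ fell by 0.75 ± 0.13 with NSM (adjusted p = 0.000505) and by 0.73 ± 0.13 with DSF+NSM (adjusted p = 0.000543), and its change with DSF was -0.17 (95% interval -0.46 to 0.11, adjusted p = 0.388). Its exons share 599 bases with an unnamed gene on the opposite strand. The level with both drugs differed from that with NSM by 0.027 (95% interval -0.26 to 0.31, adjusted p = 0.89), and by -0.49 (adjusted p = 0.0053) with equal sums.

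Genes of a broader list of granule and related proteins moved both ways. The list also held the membrane protein MS4A3, the calprotectin subunit S100A8 and the lysosomal protease CTSD. Of 20 tested, 5 rose and 4 fell with DSF, 5 rose and 10 fell with NSM, and 5 rose and 7 fell with DSF+NSM. MMP9, a gelatinase of late granules, rose by 3.26 with DSF (adjusted p = 5.43e-06) and by 2.01 with DSF+NSM (adjusted p = 3.07e-05). MS4A3, a membrane protein of granulocyte and monocyte progenitors, fell by 1.27 with DSF (adjusted p = 0.00128) and by 0.74 with DSF+NSM (adjusted p = 0.00823). Its fall of 0.57 with NSM (adjusted p = 0.033) was lost when any 1 of 5 libraries was left out (adjusted p 0.0597 to 0.126). S100A8, a subunit of calprotectin, fell by 2.27 with NSM (adjusted p = 1.5e-05). RNASE3, an eosinophil granule ribonuclease, fell by 1.00 with DSF (adjusted p = 0.00102), by 1.85 with NSM (adjusted p = 2.1e-06) and by 2.19 with DSF+NSM (adjusted p = 2.84e-07). CTSD, a lysosomal protease, rose by 1.08 with DSF (adjusted p = 0.00578) and by 1.63 with DSF+NSM (adjusted p = 5.37e-05). The rise of CTSD by 0.67 with NSM (adjusted p = 0.0233) was lost without DMSO replicate 1, 2 or 3 or NSM replicate 1 or 2 (adjusted p 0.0525 to 0.0936). It was also lost with equal sums (adjusted p = 0.162), and was 1.00 (adjusted p = 8.59e-07) without NSM replicate 3. The NADPH oxidase supplies the hydrogen peroxide that MPO uses. Of its 6 genes, 3 rose and 0 fell with DSF, 1 rose and 2 fell with NSM, and 2 rose and 1 fell with DSF+NSM. NCF1, which encodes the cytosolic subunit p47phox, rose with DSF by 1.92 (adjusted p = 3.58e-05) and fell by 0.67 with NSM (adjusted p = 0.0112). Among the membrane subunits, CYBA was not called in any (log2 changes -0.11, -0.61 and -0.33, adjusted p = 0.86, 0.174 and 0.456). Its NSM counts were 4694, 4584 and 1355, and without the last, replicate 3, the NSM value was -0.022 (adjusted p = 0.883) and the DSF+NSM fall of 0.33 was called (adjusted p = 0.00848). With equal sums the DSF+NSM value was -1.12 (adjusted p = 0.0145). CYBB was called up with DSF (0.79, adjusted p = 0.0472) and down with NSM (-0.67, adjusted p = 0.0419), and both calls were lost when any 1 DMSO or DSF library was left out (adjusted p up to 0.173 and 0.158). The first was also lost without NSM replicate 2 or DSF+NSM replicate 1 or 2, and the second without NSM replicate 1 or 2 or DSF+NSM replicate 2.

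For 6 of the 10 members the DSF+NSM change differed from the sum of the single-drug changes and lay closer to 0. The interaction is the log2 change with DSF+NSM minus that sum, so a value of 0 means that the fold changes multiply. It was negative for 5 of them and positive for 1, where 26.1% of all genes were called (45.8% without NSM replicate 3, 35.3% with equal sums and 66.2% with library weights), and all 6 were also called with equal sums, as was CD86 (-1.10, adjusted p = 0.0377). For C5AR1 the single changes sum to 8.87 and the measured change was 4.94, an interaction of -3.94 ± 0.29 (adjusted p = 9.72e-06). For CD14 (sum 4.22, measured 2.46) it was -1.75 ± 0.37 (adjusted p = 0.00437), for ITGAM (sum 1.98, measured 0.61) -1.37 ± 0.22 (adjusted p = 0.000863), and for ITGAX (sum 2.82, measured 1.57) -1.25 ± 0.31 (adjusted p = 0.0118). FCGR1A had -0.68 ± 0.20 (adjusted p = 0.0276), a call lost when any 1 library other than NSM replicate 3 and DSF+NSM replicate 3 was left out (adjusted p 0.0516 to 0.0705). MPO was the positive one, at 1.20 ± 0.18 (sum -2.65, measured -1.45, adjusted p = 0.000664). The interaction of CD33, CD86, CSF1R and LYZ was 0.011, -0.68, 0.26 and 0.20, with 95% intervals of -0.37 to 0.39, -1.48 to 0.11, -0.69 to 1.20 and -0.20 to 0.60 (adjusted p = 0.972, 0.194, 0.7 and 0.458).

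**Figure D4:**
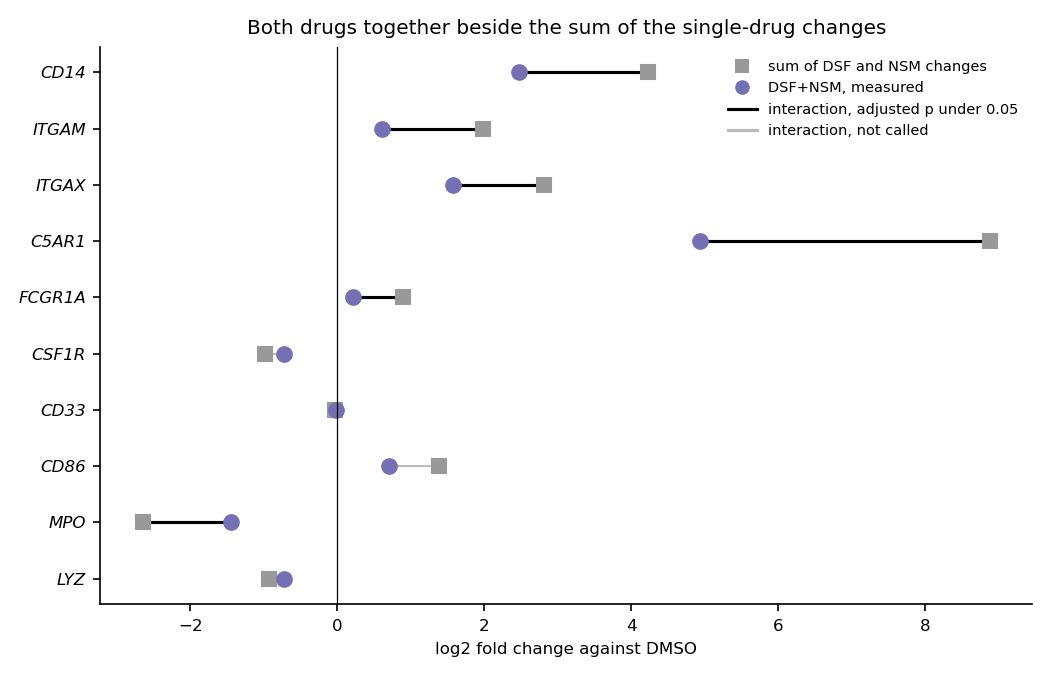
Log2 fold change of each member against DMSO: squares are the sum of the DSF and NSM changes and circles the measured DSF+NSM change. Dark lines join the pair where the interaction had an adjusted p under 0.05, as for C5AR1 (8.87 and 4.94) and MPO (-2.65 and -1.45).

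Set directly against each single drug, DSF+NSM differed in 5 members from DSF, 1 higher and 4 lower (43.1% of all genes called), and in 3 members from NSM, 2 higher and 1 lower (38.6% of all genes), shares close to those of all genes. C5AR1 was the one higher than with DSF, and CSF1R, ITGAM, MPO and LYZ were lower. CD14 and CSF1R were higher and FCGR1A was lower than with NSM. With equal sums 0 were higher and 8 lower than with DSF, where all genes split into 7.22% higher and 53.8% lower, and 0 higher and 2 lower (FCGR1A and LYZ) than with NSM, beside 9.72% and 44.9% of all genes. The median log2 difference of the members was -0.38 against DSF and 0.16 against NSM, beside 0.01 and 0.03 for all genes. In the added comparison of NSM with DSF, 9 members were called, with C5AR1 (0.76, adjusted p = 0.0107, and 0.0538 without DSF replicate 3) and FCGR1A (0.95, adjusted p = 0.000324) higher with NSM. CSF1R (-2.56), CD14 (-1.13), CD86 (-1.11), ITGAM (-0.99), MPO (-0.91), LYZ (-0.58) and CD33 (-0.43) were lower with NSM (adjusted p = 6.24e-05, 0.00425, 0.00462, 0.000401, 0.000205, 0.00381 and 0.0142). The C5AR1 difference missed the threshold with equal sums (adjusted p = 0.0521).

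**Figure D5:**
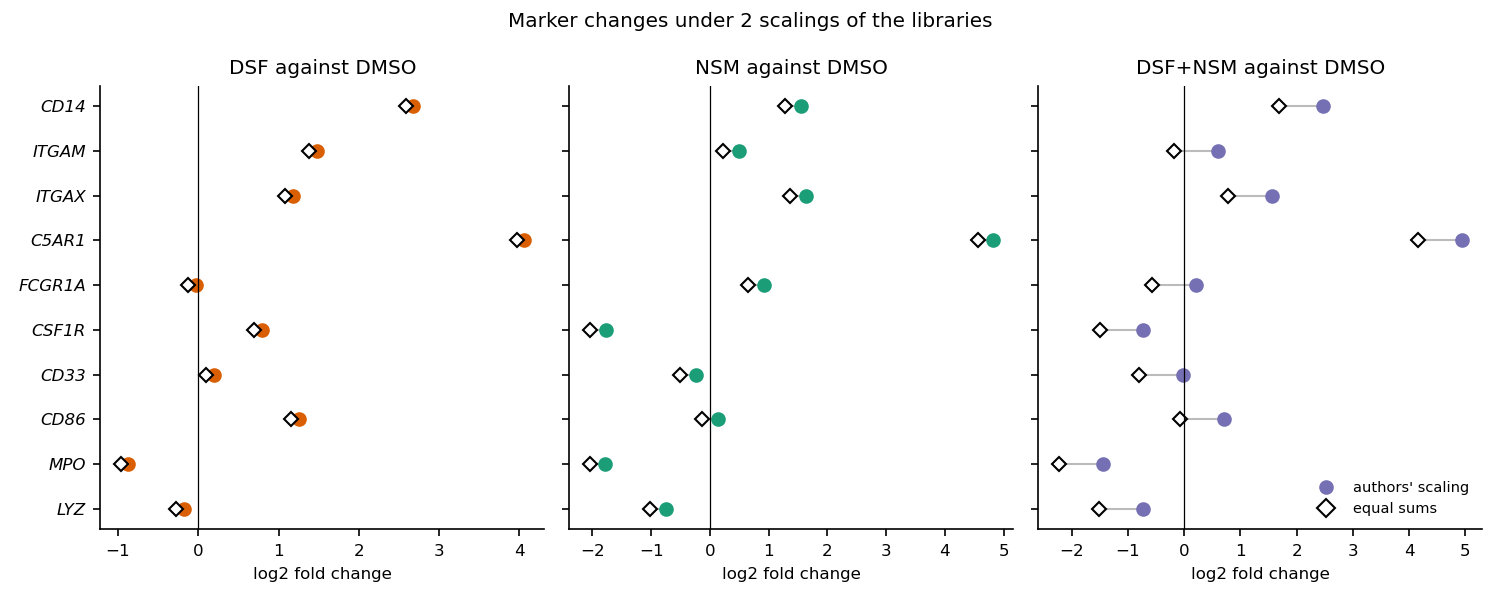
Log2 fold change of each member against DMSO (horizontal axes) with the authors' scaling (circles) and with libraries scaled to equal sums (diamonds). With DSF+NSM the diamonds of ITGAM (-0.18), CD86 (-0.067) and FCGR1A (-0.57) lie on the other side of 0 from their circles, while C5AR1 (4.16), CD14 (1.69) and ITGAX (0.78) stay above 0 and MPO (-2.23) and LYZ (-1.51) below.

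Across the 12 libraries pairs of members ran together or opposite, both within and across their roles. These correlations describe 12 libraries in 4 groups and are not independent of the treatments. C5AR1 and ITGAX had a Pearson correlation of 0.93 on the log2 scale, ITGAM and CD86 of 0.87, LYZ and MPO of 0.90, and CD33 and CSF1R of 0.88. C5AR1 and MPO ran opposite, at -0.93. Among tested genes with a mean of at least 50, the one most like C5AR1 was NFKBIA (0.994), which encodes an inhibitor of NF-kappaB. TNFRSF1B, a receptor for tumour necrosis factor, was most like ITGAM (0.985), and CXCL16, a chemokine, most like CD86 (0.928). For CD14, CD33, LYZ, MPO and FCGR1A they were FAM129B (CD14, 0.988), TMEM164 (CD33, 0.931), UBR7 (LYZ, 0.988), TGS1 (MPO, 0.978) and FAN1 (FCGR1A, 0.989).

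Further surface and regulatory genes of the lineage were counted beside the members, with the shares of all genes given above as the background. Of 11 tested receptors for complement fragments and chemoattractants, 4 rose and 0 fell with DSF, and 3 rose and 5 fell with each of NSM and DSF+NSM. FPR1, the formyl peptide receptor, rose by 1.89 with DSF (adjusted p = 0.000663) and by 1.56 with DSF+NSM (adjusted p = 0.000397). C3AR1, the C3a receptor, rose by 1.49 with NSM (adjusted p = 0.000379). CXCR2, a receptor for neutrophil-attracting chemokines, fell by 3.21 with NSM (adjusted p = 1.1e-06), and CX3CR1, the fractalkine receptor, fell by 2.77 with DSF+NSM (adjusted p = 1.82e-06). Of 6 tested macrophage surface and lysosome markers, 4 rose and 0 fell with DSF, 2 rose and 2 fell with NSM, and 3 rose and 2 fell with DSF+NSM. CD163, the haemoglobin scavenger receptor, rose by 1.64 with DSF (adjusted p = 0.00335) and by 1.48 with DSF+NSM (adjusted p = 0.00127). CD68, a lysosomal glycoprotein, rose by 0.87 with DSF (adjusted p = 0.00298), by 1.30 with NSM (adjusted p = 3.42e-05) and by 1.12 with DSF+NSM (adjusted p = 7.83e-05). CD93, a surface lectin of myeloid cells, fell by 1.34 with NSM (adjusted p = 0.000217) and by 2.46 with DSF+NSM (adjusted p = 1.33e-06). Of 7 genes listed as progenitor surface markers, 2 were tested. SPN, which encodes CD43, a protein not limited to progenitors, fell by 0.92 with NSM (adjusted p = 6.65e-05) and by 2.05 with DSF+NSM (adjusted p = 7.63e-08). The other was not called in either, and the median log2 change of the 2 was -0.32 with NSM and -0.28 with DSF+NSM. The fall was thus that of SPN only, and is not a result for progenitor markers.

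Of 11 myeloid transcription factors, 3 rose and 0 fell with DSF, 3 rose and 3 fell with NSM, and 3 rose and 5 fell with DSF+NSM. KLF4, a factor of monocytes and macrophages, rose by 4.03 with DSF+NSM (adjusted p = 1.41e-06), from 1.82 to 4.66 normalized counts in DMSO to a mean of 69.3. It also rose by 1.62 with DSF (adjusted p = 0.00731) and by 2.42 with NSM (adjusted p = 0.000111). Fold changes from so low a start are uncertain in size. CEBPB, a factor of stimulated granulocyte production, rose by 0.75 with DSF (adjusted p = 0.00784), by 1.49 with NSM (adjusted p = 1.59e-05) and by 1.54 with DSF+NSM (adjusted p = 7.66e-06). CEBPE, a factor of late granulocyte maturation, fell by 1.13 with NSM (adjusted p = 0.00667). That fall was 0.66 without NSM replicate 3 (adjusted p = 9.52e-05), and its call was lost with only the groups compared (adjusted p = 0.0581). GFI1, a repressor that guides granulocyte development, fell by 1.35 with DSF+NSM (adjusted p = 4.51e-06).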

How the data were processed

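RNA from SHI-1 cells was sequenced in 12 libraries (4 groups of 3). According to the labels and methods, the authors selected mRNA on dT beads, prepared TruSeq libraries, trimmed the reads and normalized gene counts with DESeq2; the processing notes name bcl2fastq 2.19, Bowtie2 and featureCounts, whereas the supplement names STAR and Salmon, so the counting tool is uncertain. The deposited signal is a normalized count per gene, set by the authors over 24 libraries, of which 12 are used here.

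limma (version 3.58.1, R 4.3.3) was fitted to log2(value + 1) of 13502 genes, those that reached 10 in 3 or more libraries, with 1 mean per group over all 12 libraries, a mean-variance trend and robust moderation. P-values were adjusted by Benjamini-Hochberg over all genes tested, and a call is an adjusted p under 0.05. A count model was not used because read counts were not recovered. Fold changes are on the log2(value + 1) scale. The fit was checked on simulated data with the same spread in all groups and changes in few genes. That check does not bear on NSM replicate 3 or on the unequal sums.

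The 10 members and all gene lists were chosen with earlier results of these data known. Named are the members, their direct partners (ITGB2, FCER1G, TLR4, LY96, CSF1, IL34, C5AR2, CYBA, CYBB and PTPN6), and genes with the largest called rise or fall in a list among those with a mean of at least 50. The gene most correlated with each member is named too, among tested genes with a mean of at least 50 over the 12 libraries. Of the genes that rule gave, some are not reported here, some are named for 1 comparison only, and FCGR1B and FCGR1C were added as copies of FCGR1A. Gene positions and transcript lengths came from GENCODE v44 (GRCh38) and promoters from RefSeq (GRCh38.p14). Alternatives were the median of ratios, a trimmed mean of M values, equal sums, pseudocounts of 0.1 and 10, no filter, at least 10 in every library, library weights, a fit of the compared groups only, omission of single libraries, and a block for the replicate number. The comparison of NSM with DSF was added after the values were seen. Figures were drawn with matplotlib 3.10.9.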

Additional observations from a re-analysis of the deposited data

Results flagged for a closer look

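The effect of NSM on 6 members differed between cells with and without DSF, by the interaction term in limma (adjusted over all genes, where 26.1% were called, and 45.8% without NSM replicate 3). The difference in log2 change was -3.94 for C5AR1, -1.75 for CD14, -1.37 for ITGAM, -1.25 for ITGAX, -0.68 for FCGR1A and 1.20 for MPO. DSF+NSM minus DSF was 0.88 for C5AR1, -0.21 for CD14, -0.88 for ITGAM, 0.38 for ITGAX, 0.24 for FCGR1A and -0.58 for MPO on the log2 scale, and those of CD14, ITGAX and FCGR1A were not called. Without NSM replicate 3 those of ITGAX and FCGR1A were called (adjusted p = 0.0223 and 0.041), and with equal sums that of CD14 was -0.90 (adjusted p = 0.0139). NSM minus DMSO was 4.82, 1.54, 0.50, 1.63, 0.92 and -1.78 in the same order. Without NSM replicate 3 the interaction values were -3.85, -2.09, -1.44, -1.53, -0.83 and 1.09, and all 6 were called.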

How the results depend on the processing

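No member changed its call with the median of ratios, the trimmed mean, a pseudocount of 0.1, no filter or at least 10 in every library, and a pseudocount of 10 added only CSF1R with DSF (adjusted p = 0.046) and with DSF+NSM (adjusted p = 0.0337). Scaling to equal sums reversed 5 member values: with DSF+NSM against DMSO, CD86 (-0.067, adjusted p = 0.832), FCGR1A (-0.57, adjusted p = 0.00728) and ITGAM (-0.18, adjusted p = 0.375), against DSF FCGR1A (-0.45, adjusted p = 0.0297), and against NSM LYZ (-0.49, adjusted p = 0.0053). It also reversed PTPN6 (-0.56) and TLR2 (-0.021) with DSF+NSM against DMSO. Members called with DSF+NSM against DSF numbered 8 with equal sums (all lower, 61% of all genes called) and 9 with library weights (67.5% of all genes), instead of 5 (43.1%). Against NSM they numbered 6 with library weights (72.4% of all genes) and 1, FCGR1A, with only the groups compared (18.3%), instead of 3 (38.6%). Leaving out 1 library gave 6 to 7 members called for DSF, 7 to 8 for NSM, 6 to 8 for DSF+NSM, 5 to 7 against DSF, 2 to 4 against NSM, 8 to 10 for NSM against DSF and 5 to 6 for the interaction. Depth was estimated, not counted, so no counting interval is given for low values such as those of C5AR1 in DMSO.

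Libraries with the same replicate number were at most weakly alike. Of 18 same-numbered pairs, 2 had a correlation over 0.1 (range -0.06 to 0.28), and 7 of 12 libraries were closest to their own number. These values do not settle whether the libraries are paired. With the replicate block 6, 8 and 7 calls against DMSO became 6, 8 and 6 through CD86 with DSF+NSM (0.70, adjusted p = 0.0507), and no other member call changed.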
